A study of Mus musculus with 12 samples.

Results

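The nuclear genes of the mitochondrial respiratory chain were followed across 12 mouse skin samples, each hybridised to 1 single-colour Agilent array. Members were the genes whose array name began with the symbols of complex I (Ndufa, Ndufb, Ndufc, Ndufs or Ndufv and a number), complex II (Sdha to Sdhd), complex III (Uqcr), complex IV (Cox4 to Cox8) or ATP synthase, also called complex V (Atp5). This gave 85 genes of 34650 gene names on the array, with 124 probes, of which 28 genes had more than 1 probe, and each gene was read from its brightest probe. Complex I held 35 of them, complex II 4, complex III 8, complex IV 20 and complex V 18. Ndufa4 and its paralogue Ndufa4l2 were counted with complex IV, the complex in which the Ndufa4 protein is found. The name rule also took in 3 genes that are not subunits proper, namely the pseudogene Atp5c1-ps, Atp5s (now Dmac2l) and Atp5sl (now Dmac2, which takes part in the assembly of complex I).

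Hair follicle stem cells (HFSCs) had been sorted as CD34-high, ITGA6-high and SCA1-negative cells, interfollicular epidermal cells (IFE) as ITGA6-high and SCA1-high cells, and total epidermal cells were taken beside them. Young mice were wild-type C57BL/6 animals of 8 weeks and aged mice wild-type C57BL/6 animals of at least 22 months, and both gave HFSCs, IFE and total epidermis. Control mice were wild type and cKO mice carried a conditional knockout of Col17a1 that the labels tie to the K14 promoter, which is active in basal keratinocytes in general and not in stem cells alone. Both were 12 weeks old, had received 2 mg of tamoxifen for 5 days and gave HFSCs only, and the labels name no strain for the cKO mice. In the young, aged, control and cKO mice, HFSCs were also taken 3 days after the hair had been plucked by hand. Each of the 12 groups thus held 1 array.

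The respiratory chain passes electrons from NADH (complex I) and succinate (complex II) through complex III to oxygen at complex IV, and the proton gradient built on the way drives ATP synthase. Its subunits come from both genomes: most are encoded in the nucleus, while a core set is encoded by mitochondrial DNA, and only complex II is wholly nuclear. Resting HFSCs are known for a largely glycolytic metabolism, and several complex IV subunits exist as isoforms of muscle, testis or low-oxygen tissue beside a common form.

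2 paralogue pairs return in the results below, and the probes that tell their members apart are shown as the 30 of 60 bases that hold the longest run shared with the paralogue's probe, in capitals. Ndufa4 encodes a common complex IV subunit and Ndufa4l2 its low-oxygen paralogue, while Cox6b1 encodes the common and Cox6b2 the testis isoform of a complex IV subunit. The probes lie on mm9, per the array files, at chr6:11850423-11850482 (Ndufa4), chr10:126954149-126954208 (Ndufa4l2), chr7:31409575-31411071 (Cox6b1) and chr7:4703488-4703547 (Cox6b2). The coordinates of the Cox6b1 probe span more bases than the probe holds.
Ndufa4: ccgcACAATTTtccacttaagcaggaaata
Ndufa4l2: gtgggcaaaatACAATTTcatttaacaaat
Cox6b1: gatggctgaagaCATCAAgactaaaatcaa
Cox6b2: acttgagcgctgctcccctggcgtCATCAA
The longest run shared by the Ndufa4 and Ndufa4l2 probes was 7 bases, and by the Cox6b1 and Cox6b2 probes 6 bases.

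Nuclear respiratory chain genes are known to share promoter elements, so 3 motifs were searched on both strands from 250 bases before to 50 bases after the transcript start, in promoters of RefSeq (GRCm38.p6) that were at hand for 69 of the 85 members. The NRF1 element GCGCATG, which can overlap its own reverse complement, stood in 13 of 69 members (18.84%) against 1192 of 27025 genes (4.41%). The ETS core CCGGAAG, bound by GABP among others, stood in 16 members (23.19%) against 9.93% of all genes. The YY1 core AAGATGG stood in 12 members (17.39%) against 7.28%. By complex, it stood in 7 of 31 promoters of complex I (among them Ndufa9, Ndufs4, Ndufs6 and Ndufs7) and 4 of 16 of complex V. It stood in 1 of 14 of complex IV, 0 of 3 of complex II and 0 of 5 of complex III. 33 members (47.8%) held at least 1 of the motifs against 19.5% of all genes. Stretches of 3 members that return in the comparison of aged with young cells are printed with the motif in capitals: Ndufa11 (NRF1, 53 bases before the start, plus strand of chr17:56717677-56717733), Cox6b1 (reverse complement of the ETS core, 21 bases before, minus strand of chr7:30626115-30626167) and Atp5sl (YY1, 46 bases before 1 of its starts, plus strand of chr7:25619415-25619471).
Ndufa11: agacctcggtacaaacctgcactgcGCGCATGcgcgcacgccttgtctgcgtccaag
Cox6b1: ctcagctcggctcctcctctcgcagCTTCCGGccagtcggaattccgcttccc
Atp5sl: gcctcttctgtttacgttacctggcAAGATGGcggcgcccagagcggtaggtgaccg
These matches describe the letters of the window, and no binding was measured.

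Levels are log2 intensities relative to the 75th percentile of each array, so that 0 is the level of the 75th percentile and 1 unit is a doubling. On an array, 49.7% to 65.0% of spots were well above background, the scanner software's call for a spot with signal. The control HFSC and cKO HFSC arrays stood lowest in their median correlation with the other arrays (0.888 and 0.893, the others at least 0.907). Cd34, a marker used in the sort, read 5.62 to 6.69 on the unplucked and 3.62 to 4.39 on the plucked HFSC arrays, 0.56 and 0.76 in total epidermis, and -3.05 and -5.98 in IFE. Col17a1 read 7.31 in control and 7.01 in cKO HFSCs, and 6.22 and 5.79 in the plucked ones, a difference of -0.37 ± 0.39 (SE, 2 pairs) that did not pass the test (adjusted p = 0.922, limma). The cKO arrays therefore carried Col17a1 signal close to that of the controls. Where the probe lies relative to the deleted part of the gene is not known here, and the labels are used as given. Age was confounded with the row of the slide, tamoxifen-treated against young mice with the slide, and both cell population and the knockout with the column of the slide, so that none of these can be told apart.

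Of the 85 members, 80 were well above background on all 12 arrays. Cox7b2 and Cox8c, testis isoforms, and Cox8b, the muscle and brown fat isoform of the common Cox8a, were well above background on none of the 12. Cox6a2, the muscle isoform of Cox6a1, was so on 9 arrays and Cox4i2, the low-oxygen isoform of Cox4i1, on 11, and 82 members were tested. All 85 members varied over the arrays by a median range of 1.42 log2 units. It was 1.78 for the 15998 genes that were above background throughout, a filter not applied to the members here. Complex III varied least (1.02) and complex IV, with Cox7b2, Cox8b and Cox8c included, most (1.51) by this measure.

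Set against each gene's own mean over the 12 arrays, the 80 genes stood highest in plucked HFSCs. The median deviation was 0.44 in control plucked, 0.39 in young plucked, 0.24 in cKO plucked and 0.17 in aged plucked HFSCs. Among unplucked HFSCs it was 0.30 in young, -0.07 in control, -0.12 in cKO and -0.31 in aged cells. In IFE it was -0.04 in young and -0.27 in aged cells, and in total epidermis -0.38 in both. The unplucked young HFSCs therefore sat among the plucked samples, and the other unplucked HFSCs below them. The control plucked array gave the highest value of 25 genes, the young plucked array of 21 and the young HFSC array of 15. The lowest values lay mostly on the young total epidermis and cKO HFSC arrays (18 genes each) and the aged total epidermis array (15). On the control HFSC array the complexes were furthest apart, with complex I at 0.06, complex III at 0.14 and complex IV at -0.39.

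**Figure D1:**
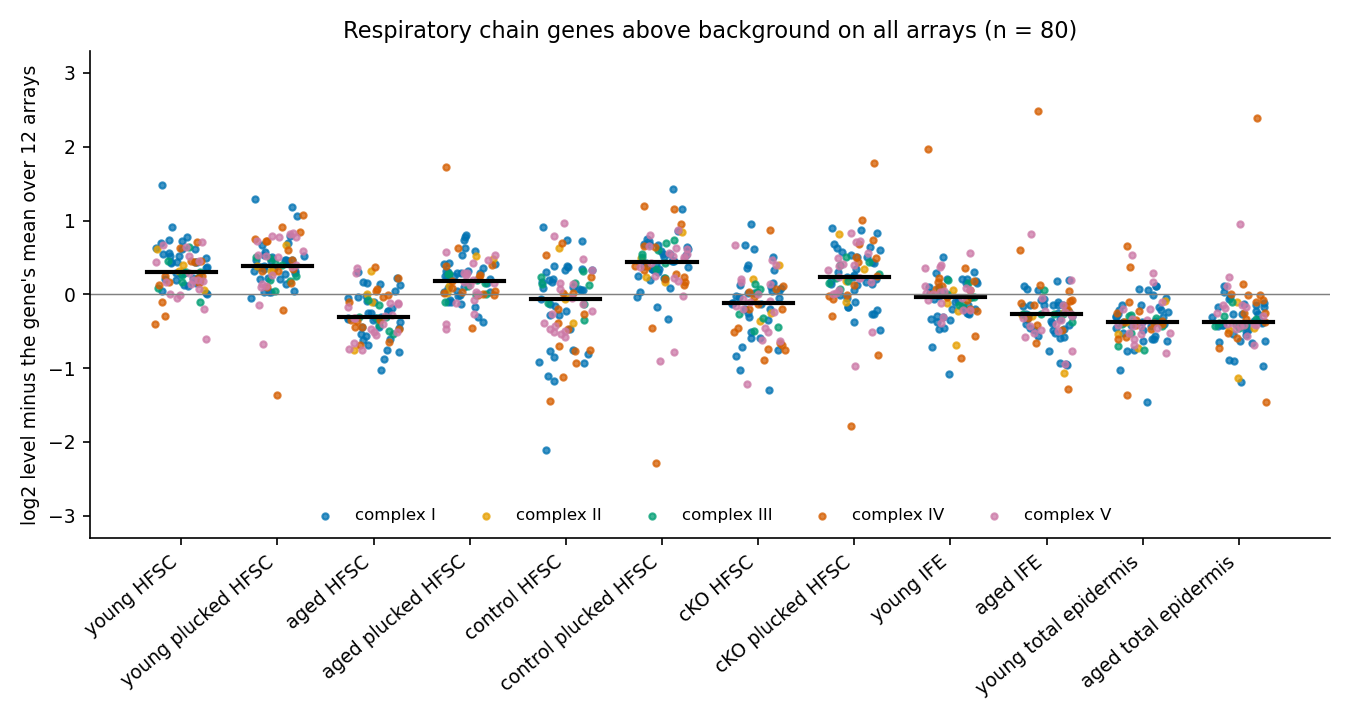
Deviation of each gene's log2 level (y axis) from its own mean over the 12 arrays (x axis), with points for the 80 genes above background on all arrays, coloured by complex, and black bars for the array's median. The 4 plucked HFSC arrays and the young HFSC array have medians from 0.17 to 0.44, the other 7 arrays from -0.38 to -0.04.

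The first comparison asks what plucking, which starts a new hair cycle, does to these genes in HFSCs. Respiratory chain genes were higher in plucked cells in 72 of 82 members, with a median log2 difference of 0.36, while the median of all 25366 genes tested was -0.06. None of the 82 passed the test across all genes (limma, adjusted p under 0.05, lowest 0.117 for Cox6b2), against 0.501% of all genes called, and at an unadjusted p under 0.05 there were 12 higher and 1 lower, against 17.6% of all genes past it. 31 members (37.8%) were higher in all 4 pairs of plucked and unplucked arrays, against 14% of all genes, and 2 (2.44%) were lower in all 4, against 15.3%. In these bulk samples, fewer cells of a type and less RNA per cell cannot be told apart. Nothing in the labels ties the samples to single animals, and each group held 1 array. All p-values therefore measure only the spread that the fits leave between samples of unlike groups. In the fit for plucking, an effect that differs between mouse types counts as part of that spread.

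All 5 complexes had medians above 0 after plucking. The median was 0.38 in complex I (32 of 35 genes higher), 0.28 in complex II (4 of 4), 0.32 in complex III (8 of 8), 0.35 in complex IV (13 of 17) and 0.44 in complex V (15 of 18). Genes higher in all 4 pairs numbered 12 in complex I, none in complex II, 4 in complex III, 7 in complex IV and 8 in complex V. Besides the subunits in this list, cytochrome c (Cycs), the carrier between complexes III and IV, was higher by 1.21 ± 0.23 (adjusted p = 0.1).

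By pair, the median of the 82 genes was 0.08 in young, 0.46 in aged, 0.51 in control and 0.46 in cKO mice, against -0.0003, -0.07, -0.17 and 0.04 for all genes. In control mice 14 of 82 members were lower, against 56.2% of all genes. In young mice 46 members were higher and 36 lower, and 1 gene (Cox6b2) was at least 2-fold higher and 1 (Atp5s) lower. In aged mice 12 members were at least 2-fold higher and none lower, in control mice 19 and 3, and in cKO mice 9 and 4, with 1 array against 1 in each pair and no test. Among all genes, 14.9%, 15.6%, 21% and 22.2% were at least 2-fold higher in the young, aged, control and cKO pair, and 11%, 16.8%, 20.2% and 17.1% at least 2-fold lower. The members at least 2-fold higher made up fewer than these shares in every pair except the control one. The contrast of plucking in aged and cKO mice with plucking in their own controls had a median of 0.14 (52 genes higher and 30 lower, or 44 and 38 with quantile and 63 and 19 with median scaling; all genes 0.03). With quantile scaling this median was 0.02, against 0.03 for all genes, and with median scaling 0.33 against 0.23. No member passed (limma, lowest adjusted p 0.999), nor was any at an unadjusted p under 0.05, against 4.49% of all genes.

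**Figure D2:**
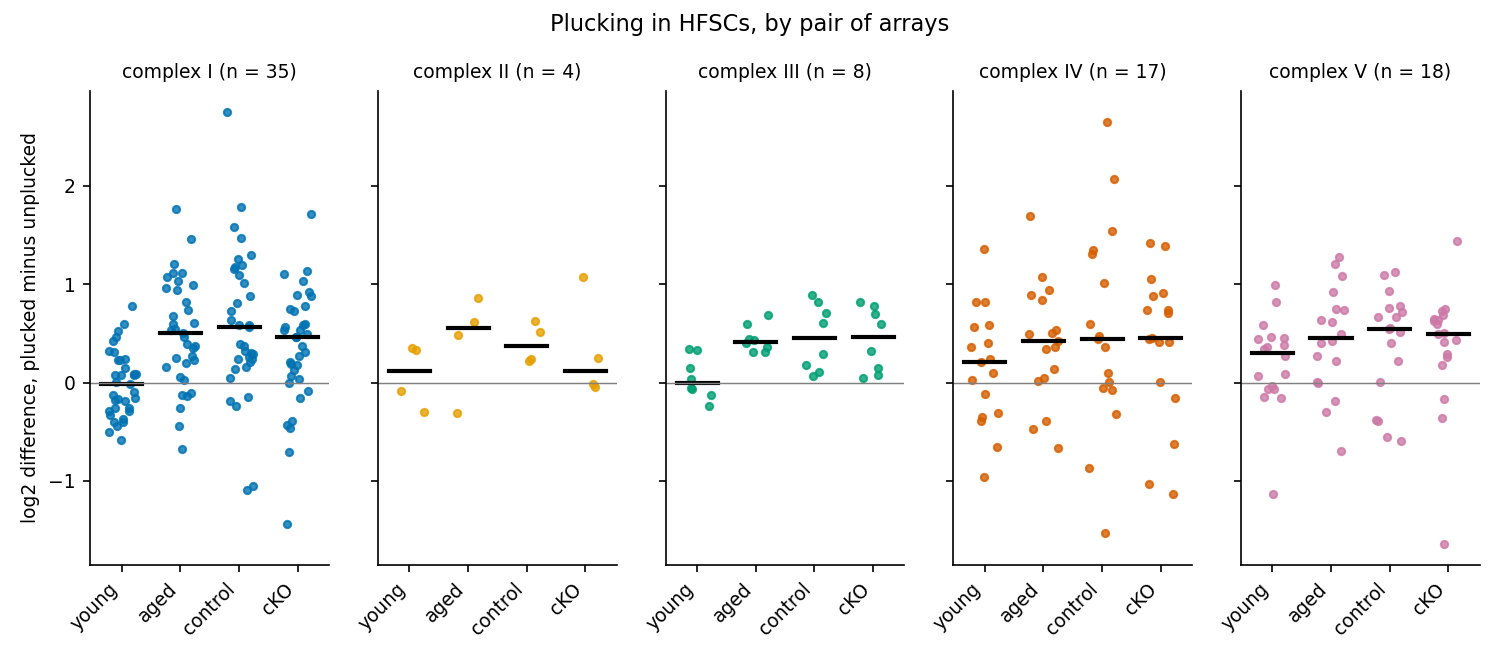
Log2 difference of plucked minus unplucked HFSCs (y axis) for each tested gene, by pair of arrays (x axis) and complex (panels), with black bars for medians. Complex I has a median of -0.02 in the young pair and of 0.46 to 0.56 in the other 3 pairs.

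The complex IV gene Cox6b2 differed most. Its level in unplucked HFSCs was 1.06 in young, 1.39 in aged, -0.1 in control and 2.22 in cKO cells, and in plucked HFSCs 2.42, 3.08, 2.55 and 3.13. All 4 plucked samples lay above all 4 unplucked ones, and the difference was 1.65 ± 0.36 (SE, 4 pairs; adjusted p = 0.117). Cox5a, a structural subunit of complex IV, read 2.88, 2.33, 1.86 and 2.94 in unplucked young, aged, control and cKO cells and 3.7, 3.22, 3.93 and 3.99 in plucked ones. Its plucked and unplucked samples did not overlap either, with a difference of 1.21 ± 0.31 (adjusted p = 0.157).

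Ndufa4 and Ndufa4l2 stood on opposite sides in this comparison. Ndufa4 read 3.54, 2.92, 2.98 and 2.68 in unplucked and 4.12, 3.99, 4.52 and 4.1 in plucked young, aged, control and cKO cells. The samples did not overlap, and the difference was 1.15 ± 0.27 (adjusted p = 0.137). Ndufa4l2 read -0.77, -0.15, -1.12 and -1.02 in unplucked and -1.73, -0.82, -2.65 and -2.15 in plucked cells. It was lower in all 4 pairs (-1.07 ± 0.26, adjusted p = 0.141), although the aged plucked sample lay among the unplucked ones. Neither gene passed the test, and the 2 differences were not tested against each other.

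Ndufs8, an iron-sulfur subunit of complex I, was the next largest with 1 sign in all pairs. It read 0.21, -1.51, -1.29 and -0.79 in unplucked and 0.81, 0.25, 0.18 and -0.66 in plucked young, aged, control and cKO cells. The groups overlapped, since the young unplucked level was above that of 2 plucked samples, and the difference was 0.99 ± 0.36 (adjusted p = 0.257). Ndufa6, an accessory subunit of complex I, went the other way, from 1.66, 1.67, 2.28 and 1.39 to 1.4, 0.99, 1.19 and 1 (-0.61 ± 0.26, adjusted p = 0.315). Ndufa10, another accessory subunit, stood apart on 1 array: it read -0.06 in control HFSCs and 1.59 to 2.69 on the 11 other arrays.

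The 13 subunits encoded by mitochondrial DNA did not share this direction. They were lower in plucked cells in 13 of 13 genes, with a median of -0.18 (6 lower in all 4 pairs, none past the test or at an unadjusted p under 0.05). With quantile scaling in place of the 75th percentile, 6 were higher and 7 lower and the median was -0.06, and with background modelling added, 5 were higher and 8 lower and it was -0.01, so the sign of single genes turned with the scaling. The nuclear members kept medians of 0.31 and 0.32 under these scalings. Mitochondrial ribosomal proteins, which make up the ribosome that translates the mitochondrial genes, had a median of 0.54, with 72 of 77 genes higher, 33 of them in all 4 pairs and 24 at an unadjusted p under 0.05. The 8 other subunits and electron carriers had a median of 0.76 (8 of 8 higher), and the 46 assembly factors one of 0.38 (32 higher, 14 lower). None of the 77, 8 and 46 genes passed the test (limma).

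Other changes ran alongside plucking. The 12 cell cycle genes had a median of 3.36 and all 12 were higher, and Bub1 (5.46 ± 0.57), Tpx2 (5.78 ± 0.62) and Mki67 (3.81 ± 0.40), which act in mitosis, rose past the threshold (adjusted p = 0.0448 for each, limma, 4 of 4 pairs). Without any 1 of the 4 pairs, no gene of the array passed. Their summed linear level was 10.9 to 24.5 in unplucked and 58.8 to 109 in plucked HFSCs. The summed level of 9 HFSC markers was 306 to 474 in unplucked and 225 to 313 in plucked cells, with 8 of 9 lower and none past the test. The summed level of the fibroblast markers was 4.27 to 9.17 in unplucked and 2.07 to 2.47 in plucked cells, made up mostly of Col1a2. Of the 4 fibroblast markers tested, 2 were higher and 2 lower, with a median of 0.15. That of 7 brown fat markers was 1.03 to 2.61 and 8.49 to 12.5, without overlap. Dio2, a deiodinase that activates thyroid hormone, read -2.98 to 0.81 in unplucked and 2.8 to 3.56 in plucked cells, while Ucp1 and Fabp4 of the same list were well above background on 0 of the 12 arrays. Muscle markers summed to 5.28 to 8.68 in unplucked and 8.62 to 11.8 in plucked cells, a sum made up mostly of Atp2a1. Of the 7 muscle markers tested, 2 were higher and 5 lower after plucking, with a median of -0.29. Of the melanocyte markers, summed at 3.98 to 6.5 and 1.54 to 2.43, Mitf fell past the threshold (-2.84 ± 0.23, adjusted p = 0.0439, limma). Mitf made up most of the unplucked sum. Of the 5 melanocyte markers tested, 3 were higher and 2 lower, with a median of 0.40. The part of these in the values of the respiratory chain genes was not tested.

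The comparison of aged with young HFSCs, plucked and unplucked together, addresses the aging of these cells. Respiratory chain genes were lower in aged cells in 76 of 82 members, with a median of -0.40, against 12210 of 25366 genes lower and a median of 0.03 over all genes. No member passed the test, and nor did any gene of the array (0% called, limma, lowest adjusted p among members 0.931). At an unadjusted p under 0.05 there was no member, against 4.85% of all genes. 55 members (67.1%) were lower in both pairs, against 25.7% of all genes, and 4 (4.88%) were higher in both, against 30.1%. All 35 complex I genes, all 4 complex II genes and all 8 complex III genes were lower; with quantile scaling these counts were 33, 3 and 8. The medians were -0.44 in complex I, -0.18 in complex II, -0.36 in complex III, -0.33 in complex IV (13 of 17 lower) and -0.46 in complex V (16 of 18 lower).

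The difference lay more in the unplucked than in the plucked pair. In unplucked cells the median was -0.59 with 73 of 82 members lower (against 47.6% of all genes), and 10 of 82 members were at least 2-fold lower (against 11.5% of all genes). In plucked cells it was -0.18 with 60 members lower, and 3 were at least 2-fold lower (against 10.1% of all genes). The count of the unplucked pair was close to the share of all genes and rests on 1 array against 1. Its 10 members were Ndufs8, Ndufa1, Ndufa11, Ndufs4, Ndufa12, Ndufs7, Ndufb10, Ndufb8, Cox6b1 and Sdhd, a membrane anchor of complex II. The 1 member at least 2-fold higher was Cox6a2, against 18.5% of all genes, and its young reading was not well above background. Whether the pairs differ was not tested beyond the contrast of plucking given above.

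**Figure D3:**
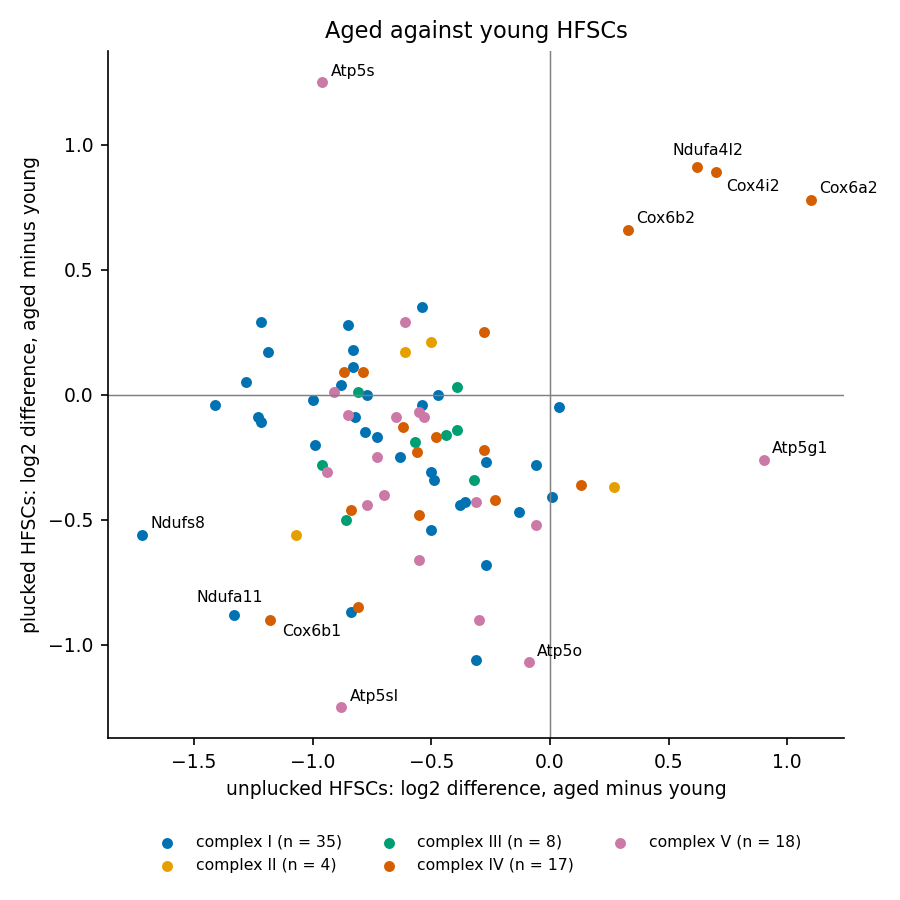
Log2 difference of aged minus young cells in plucked HFSCs (y axis) against unplucked HFSCs (x axis) for the 82 tested genes, coloured by complex. The 55 genes lower in both pairs fill the lower left, and Cox6a2, Cox4i2, Ndufa4l2 and Cox6b2 alone lie in the upper right.

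Among the lower genes, Ndufs8 read 0.21 and 0.81 in young and -1.51 and 0.25 in aged cells (unplucked and plucked, -1.14 ± 0.51, SE, 2 pairs). Ndufa11, a subunit of the membrane arm of complex I, read 4.27 and 3.98 in young and 2.94 and 3.1 in aged cells (-1.10 ± 0.44). Young and aged samples overlapped for Ndufs8 by the plucked aged sample and did not overlap for Ndufa11. Atp5sl read 1.35 and 1.42 in young and 0.47 and 0.17 in aged cells (-1.07 ± 0.51), and Cox6b1 read 2.97 and 3.18 in young and 1.79 and 2.28 in aged cells (-1.04 ± 0.42). Neither of these overlapped, and all 4 genes had an adjusted p of 0.931 (limma). The promoters of Ndufa11, Cox6b1 and Atp5sl are those printed above, with an NRF1, an ETS and a YY1 motif, and each gene is 1 example of its motif.

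The 4 genes higher in both pairs were all of complex IV and all are isoforms or paralogues outside the common set. Cox6a2 read -3.91 and -3.09 in young and -2.81 and -2.31 in aged cells (unplucked and plucked, 0.94 ± 0.54). It was well above background in 1 of 2 young samples. Cox4i2 read -2.41 and -3.07 in young and -1.71 and -2.18 in aged cells (0.80 ± 0.43). Ndufa4l2 read -0.77 and -1.73 in young and -0.15 and -0.82 in aged cells (0.77 ± 0.37), and Cox6b2 was higher by 0.49 ± 0.50. Each adjusted p was between 0.931 and 0.937, and the young and aged samples of Ndufa4l2 and Cox6b2 overlapped. Their common counterparts had values below 0, at -0.39 for Cox4i1, -0.35 for Cox6a1, -0.37 for Ndufa4 and -1.04 for Cox6b1. Cox7a1, a muscle isoform of complex IV, did not share this direction in both pairs. It read -0.81 and -0.71 in young and -0.68 and -1.07 in aged cells (unplucked and plucked).

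Other mitochondrial genes stood lower in aged HFSCs as well. The 77 mitochondrial ribosomal proteins had a median of -0.31 (63 lower, 44 in both pairs), the 46 assembly factors -0.33 (39 lower), the 8 other subunits and electron carriers -0.41 (7 lower) and the 13 mitochondrially encoded subunits -0.22 (10 lower). None of these genes passed the test. Scaling moved the level of the whole comparison: on the median of each array, the members' median was -0.64 and that of all genes -0.22, and with quantile scaling -0.28 and -0.02. Relative to all genes, the members stood at -0.42 with either percentile and at -0.25 with quantile scaling. In unplucked young and aged HFSCs the summed level was 398 and 306 for HFSC markers, 845 and 565 for basal keratinocyte and IFE markers, 10.9 and 11.8 for cell cycle genes, 9.17 and 7.17 for fibroblast, 6.74 and 3.27 for endothelial, 2.76 and 3.31 for T cell and 167 and 178 for Langerhans and myeloid markers. The young endothelial sum was made up mostly of Tek, which read 1.97 in unplucked young HFSCs and -5.19 to -3.85 on all other arrays. Kdr read 1.45 in unplucked young and 1.65 in unplucked aged HFSCs, and Pecam1, Cdh5 and Emcn -5.98 to -3.86. The 8 basal keratinocyte and IFE markers were all lower in the unplucked pair, with a median of -0.59, the same as that of the members. In the plucked pair they stood at 0.36 with 6 of 8 higher, and the cell cycle genes at -0.75 with 10 of 12 lower. The part of these markers in the members' values was not tested.

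The knockout was set against its tamoxifen-treated controls, plucked and unplucked together. Here the members stood close to all genes: the median was -0.11 against -0.01, 28 were higher and 54 lower, and none passed the test (0% of all genes called, 1 member at an unadjusted p under 0.05 against 6.48% of all genes, limma). 36 members (43.9%) were lower in both pairs against 25.8% of all genes, and 8 (9.76%) higher against 23.9%. With quantile scaling the members split into 37 higher and 45 lower, with background modelling added into 38 and 44, and with median scaling into 19 and 63. Complex III was lower in 8 of 8 genes, 7 of them in both pairs, with a median of -0.18 (6 of 8 with quantile scaling, 7 of 8 with background modelling added). The medians were -0.09 in complexes I and V, -0.16 in complex II and -0.05 in complex IV. That of complex I turned to 0.03 with background modelling and quantile scaling. In the unplucked pair, the median was -0.07 with 6 of 82 members at least 2-fold higher and 3 lower (against 17.6% and 20.8% of all genes). In the plucked pair it was -0.20 with none 2-fold apart (against 11.5% of all genes higher and 12% lower).

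Cox6b2 was the member at an unadjusted p under 0.05. It read -0.1 and 2.55 in control and 2.22 and 3.13 in cKO HFSCs (unplucked and plucked), a difference of 1.45 ± 0.50 (adjusted p = 0.734), and the groups overlapped. The unplucked control was the lowest of the 8 HFSC samples, and the unplucked pair differed by 2.32. The other members higher in both pairs by the largest amounts were Cox5a (0.56 ± 0.44), Sdhc, a membrane anchor of complex II (0.36 ± 0.40), and Ndufa4l2 (0.30 ± 0.37). The other probe of Sdhc, also above background on all 12 arrays, gave -0.20. The largest lower values were those of Ndufc1 (-0.65 ± 0.36) and Ndufv1, the NADH-binding subunit of complex I (-0.64 ± 0.35), Cox7b (-0.59 ± 0.36) and Atp5b, the catalytic subunit of ATP synthase (-0.57 ± 0.34). Their adjusted p-values lay between 0.816 and 0.937.

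Control and young HFSCs differ in tamoxifen, age by some weeks, and slide, which cannot be told apart. The comparison shares its young arrays with that of aged and young cells. The median of the members was -0.19 (all genes 0.02), 27 were higher and 55 lower (40 and 42 with median scaling), none passed (0% of all genes called), and 2 were lower at an unadjusted p under 0.05 (limma), against 8.77% of all genes past it. 30 members (36.6%) were lower in both pairs against 28.6% of all genes. By medians the difference lay in the unplucked pair, at -0.36, against 0.04 in the plucked pair. In the unplucked pair 17 of 82 members were at least 2-fold lower, close to the share of all genes (18.8%). The plucked pair had 1 such member (Atp5sl, against 12.4% of all genes). The largest lower values in the fit were those of Atp5sl (-1.45 ± 0.51), Ndufv3, an accessory subunit of complex I (-1.12 ± 0.48), Cox6b1 (-1.08 ± 0.42) and Ndufs8 (-1.07 ± 0.51). Their adjusted p-values were from 0.569 to 0.582 (limma). The other probes of Ndufv3, also above background on all 12 arrays, gave -0.190 and -0.185. Atp5sl, Cox6b1 and Ndufs8 were also among the 4 lowest in aged cells, against the same young arrays. Highest were Cox6a2 (0.64), Atp5s (0.63), Ndufc2 of complex I (0.56) and Cox7a2 (0.53). The medians of complexes III and V (-0.02 and -0.11) turned to 0.17 and 0.08 with median scaling. The mitochondrially encoded subunits stood the other way, with a median of 0.26 (10 of 13 higher, each in both pairs), and the difference of Cycs was -1.58 ± 0.33 (adjusted p = 0.564).

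HFSCs were next set against IFE and against total epidermis, each over the young and the aged pair of unplucked samples and with the same HFSC arrays. In IFE the members' median was -0.16 (all genes 0.09), with 61 of 82 lower and none past the test, against 4.76% of all genes called. At an unadjusted p under 0.05, 1 was higher and 5 lower (limma), against 20.1% of all genes past it. In total epidermis the median was -0.37 (all genes 0.07), with 70 lower and none past the test against 3.92% of all genes, and 2 higher and 7 lower at an unadjusted p under 0.05 (20.8% of all genes). Members lower in both pairs made up 35.4% in IFE (27.5% of all genes) and 53.7% in total epidermis (27.3% of all genes). Those higher in both pairs made up 12.2% in IFE (36.8% of all genes) and 3.66% in total epidermis (34% of all genes).

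The young and the aged pair differed widely here. In young mice, the median was -0.36 for IFE and -0.70 for total epidermis, where all 35 complex I genes, all 4 complex II genes and all 8 complex III genes were lower. In aged mice, it was 0.07 for IFE, with 49 members higher and 33 lower, and -0.07 for total epidermis, with 35 higher and 47 lower. The aged HFSC array, low for these genes (median deviation -0.31), is the base of both aged values. The young HFSC array, high for them (0.30), is the base of both young values. Unplucked control and cKO HFSCs lay between these arrays, at -0.07 and -0.12. The part of either array in the difference between the pairs was not tested. Over both pairs the complexes stood at -0.21 (I), -0.35 (II), -0.14 (III), -0.05 (IV) and -0.13 (V) in IFE, where complex IV turned to 0.02 with background modelling and quantile scaling. In total epidermis they stood at -0.45, -0.47, -0.41, -0.26 and -0.20.

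Ndufa4l2 was the gene nearest to the threshold. It read -0.77 in young and -0.15 in aged HFSCs, 1.6 and 2.12 in IFE, and 0.29 and 2.02 in total epidermis. Every epidermal sample lay above every HFSC sample, including the plucked, control and cKO ones. In IFE it was higher by 2.32 ± 0.41 (SE, 2 pairs; 5.0-fold, adjusted p = 0.0545), and in total epidermis by 1.62 ± 0.41 (adjusted p = 0.121). In IFE it passed (limma) under 3 of the alternative settings. The adjusted p-values were 0.0371 with background modelling and quantile scaling, 0.0468 for the mean of all probes and 0.0178 over the genes above background on every array. Ndufa4l2 is read by 1 probe. Its own difference therefore stayed at 2.32 with the mean of all probes, and it did so with the filter on every array. Only the values or number of the other genes differed in those settings. The paralogue Ndufa4 differed by -0.47 in IFE and -0.21 in total epidermis.

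Ndufa11 stood the other way. It read 4.27 in young and 2.94 in aged HFSCs, 1.71 and 1.85 in IFE, and 1.33 and 1.61 in total epidermis. All 8 HFSC samples, from 2.59 to 4.27, lay above the 4 epidermal ones. The difference was -1.83 ± 0.49 in IFE (adjusted p = 0.134) and -2.13 ± 0.49 in total epidermis (adjusted p = 0.0997). Ndufa11 is read by 1 probe. In total epidermis it passed (limma, adjusted p = 0.0399) over the genes above background on every array, where its own difference was unchanged.

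Sdhb, the iron-sulfur subunit of complex II, read 2.46 and 1.85 in young and aged HFSCs, 1.16 and 0.78 in IFE, and 1.12 and 0.71 in total epidermis. The epidermal samples did not overlap with any of the 8 HFSC samples, and the differences were -1.19 ± 0.27 in IFE (adjusted p = 0.0953) and -1.25 ± 0.27 in total epidermis (adjusted p = 0.0898). The second probe of Sdhb, also above background on all 12 arrays, gave 0.27 in IFE and -0.18 in total epidermis, so that the value rests on 1 of 2 probes. Cox6b2 read 1.06 and 1.39 in HFSCs, 0.49 and 0.07 in IFE and -0.02 and -0.11 in total epidermis, with differences of -0.95 ± 0.32 (adjusted p = 0.2) and -1.29 ± 0.32 (adjusted p = 0.115). Its epidermal samples overlapped with the control HFSC sample at -0.1. Further lower genes were Ndufc2 in IFE (-0.85 ± 0.27) and Ndufa2, an accessory subunit of complex I, in total epidermis (-1.14 ± 0.31, adjusted p = 0.136).

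Besides Ndufa4l2, Atp5g1 was the member with the largest higher value, 0.77 ± 0.29 in IFE (adjusted p = 0.252) and 0.90 ± 0.29 in total epidermis (adjusted p = 0.189). Atp5g1, Atp5g2 and Atp5g3 encode the same mature c subunit of the ATP synthase ring. The other probe of Atp5g1 gave -0.07 and -0.23. Atp5g2 differed by -0.49 and -0.92 in IFE and total epidermis, and Atp5g3 by -0.17 and -0.29. The remaining named members were Cox6a2 (0.60) and Ndufa10 (0.39) in IFE and Atp5c1-ps (0.28) in total epidermis.

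**Figure D4:**
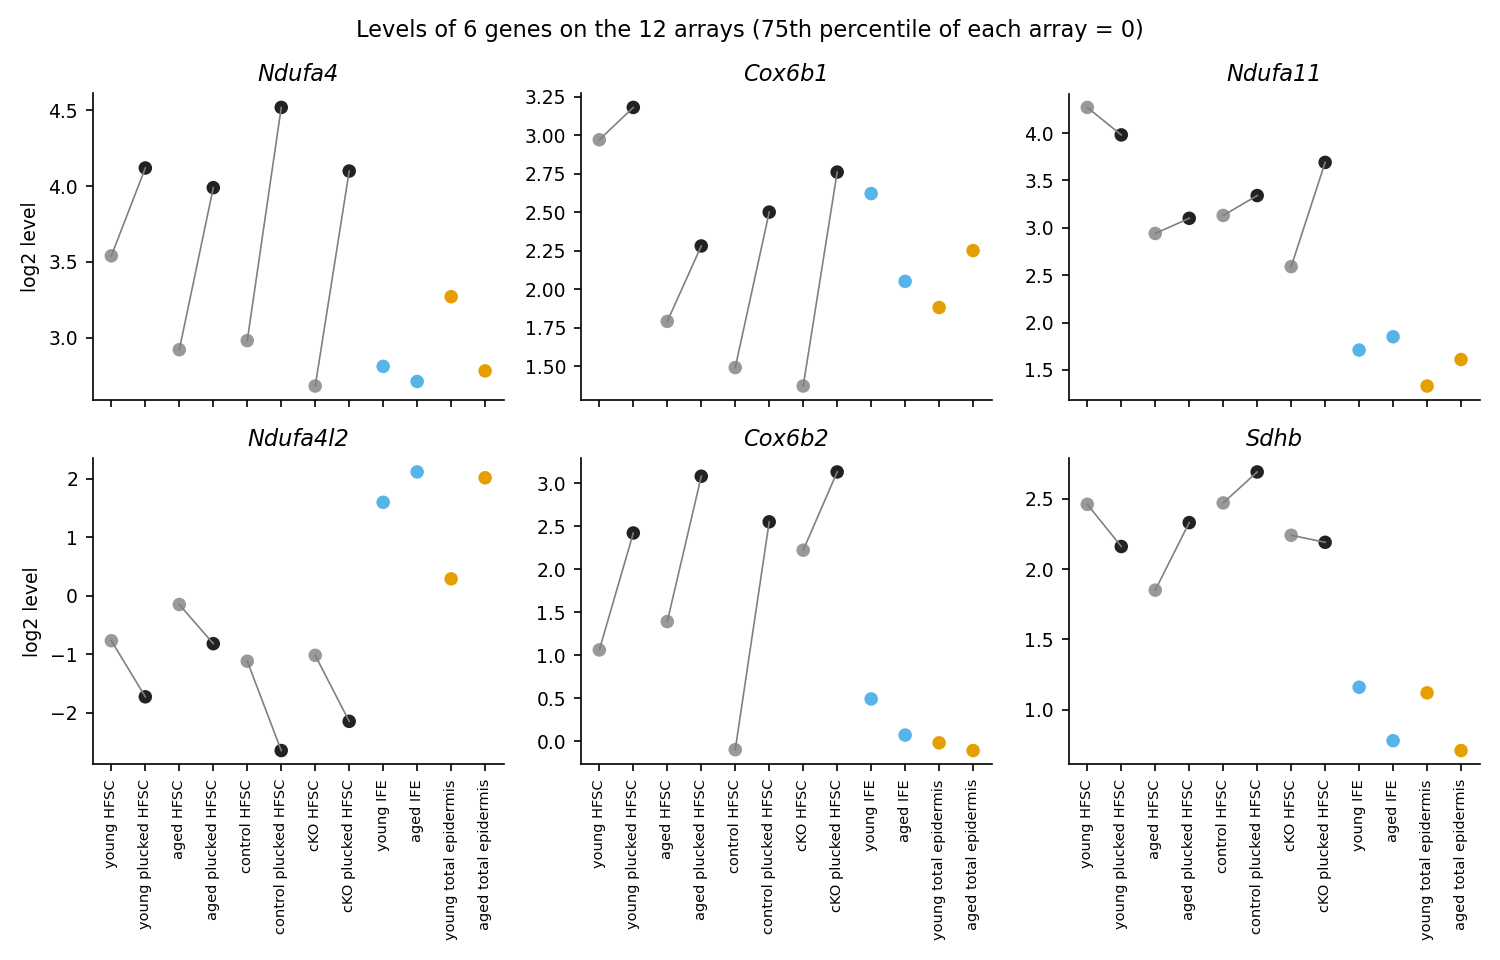
Log2 level (y axis, 0 is the 75th percentile of the array) of 6 genes on each of the 12 arrays (x axis), with lines joining unplucked (grey) and plucked (black) HFSCs of the same mouse type, blue for IFE and orange for total epidermis. Ndufa4l2 lies above 0 in the 4 epidermal samples and below 0 in the 8 HFSC samples, while Ndufa11 and Sdhb lie lowest in the epidermal samples.

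Markers of other cells moved with these comparisons. The summed level of HFSC markers was 398 and 306 in young and aged HFSCs, 142 and 129 in IFE and 120 and 121 in total epidermis, and 6 of 9 fell past the threshold in IFE. T cell markers summed to 2.76 and 3.31 in HFSCs, 8 and 7.78 in IFE and 9.44 and 16.3 in total epidermis. In IFE the sum was made up mostly of Thy1, at 2.74 in young and 2.52 in aged IFE, against 0.74 and 0.47 in HFSCs. Cd3e read -1.22 and -0.52 in young and aged IFE, against -1.32 and -0.48 in HFSCs. Of the 6 T cell markers, 5 were higher in IFE, with a median of 0.29 and none past the test. In total epidermis Cd3g (5.93 ± 0.27, adjusted p = 0.0193) and Cd3e (2.85 ± 0.27, adjusted p = 0.0239) rose past the threshold. Langerhans and myeloid markers summed to 167 and 178 in HFSCs, 228 and 210 in IFE and 200 and 291 in total epidermis, a sum made up mostly of the bright Itgam. In total epidermis all 6 of those tested were higher in both pairs, with a median of 2.16 and none past the test. H2-Ab1, an antigen presentation gene, read 0.03 and 0.37 in young and aged HFSCs and 2.24 and 3.24 in total epidermis. The 11 cell cycle genes tested were all higher in IFE (median 1.49) and in total epidermis (0.96), with none past the test. Fibroblast markers summed to 9.17 and 7.17 in HFSCs and to at most 0.585 in the epidermal samples, where Col1a1 and Col1a2 fell past the threshold in both comparisons. The part of these cells in the members' values was not tested.

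Age was also compared in the epidermis, over total epidermis and IFE. The members' median was -0.10 (all genes 0.05), with 61 of 82 lower (76 with median scaling), 29 (35.4%) lower in both pairs against 24.1% of all genes, and none past the test (0% of all genes called, 1 member at an unadjusted p under 0.05 against 6.5% of all genes, limma). In total epidermis 44 members were higher and 38 lower (median 0.04), and in IFE 15 were higher and 67 lower (median -0.21). Of the marker lists, 11 of 11 cell cycle genes were higher in aged epidermis (median 0.83, 10 in both pairs, 7 at an unadjusted p under 0.05), T cell markers were higher in 6 of 6 (0.46) and basal keratinocyte and IFE markers lower in 6 of 8 (-0.50), with none past the test. Their part in the members' values was not tested. Ndufa4l2 was the member at an unadjusted p under 0.05 and was higher in aged cells, with 0.29 and 1.6 in young and 2.02 and 2.12 in aged total epidermis and IFE (1.13 ± 0.39, adjusted p = 0.762). Young and aged samples did not overlap, and the total epidermis pair, 1.73 apart, carried most of the difference. Thus Ndufa4l2 was higher in the aged sample of all 4 age pairs, by 0.77 on average in HFSCs and 1.13 in epidermis, without passing either test. The lowest were Ndufa9 (-0.57 ± 0.25) and Ndufb2 (-0.55 ± 0.27) of complex I, with Atp5sl (-0.43 ± 0.30) and Sdhb (-0.39 ± 0.24). Atp5g1 (0.42 ± 0.24), Ndufa11 (0.21 ± 0.24) and Ndufs6 (0.14 ± 0.25) were higher in both pairs.

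Single subunits and isoforms of complexes II and IV differed as follows. In complex II, Sdha, the flavoprotein, differed by at most 0.30 in size in any of the 7 comparisons of groups. Sdhb differed by -1.25 in total epidermis, where its other probe gave -0.18. Sdhc was higher after plucking (0.56) and Sdhd lower in aged HFSCs (-0.81). Of the Cox7a genes, Cox7a1, the muscle form, differed most between control and young HFSCs (-0.75), and Cox7a2, the common form, there as well (0.53). Cox7a2l, which takes part in supercomplex assembly, differed most in total epidermis (-0.41), where its other probes gave -0.40 and 0.27. Cox8a was lower in total epidermis (-1.01), and its other probe gave -1.15. None of these passed the test.

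Markers of muscle, in which Cox6a2 and Cox7a1 are common, differed among themselves. Ckm, a creatine kinase, read -6.15 to -2.96 and was well above background on 1 array. Atp2a1, a calcium pump, read 1.49 to 3.45, and Mylpf and Tnnt3, parts of the contractile filaments, read -3.75 to -0.24 and -2.18 to -1.48, each well above background on all 12 arrays. Myh1, a myosin heavy chain, read 1.49 in young HFSCs and -6.49 to -3.29 on the other 11 arrays. Cox6a2 read -3.91 on the young HFSC array, below the lowest signal well above background there (-3.70). The differences of Cox6a2 from young HFSCs given above, with aged and control HFSCs and IFE, rest in part on this reading. The part of muscle cells in these values was not tested.

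The nuclear members, the mitochondrially encoded subunits and the mitochondrial ribosomal proteins are set side by side over all comparisons. In IFE the medians were -0.16, -0.18 and -0.02, in total epidermis -0.37, -0.22 and -0.16, and in aged epidermis -0.10, -0.17 and -0.09. The mitochondrially encoded genes were lower in 13 of 13 cases in both IFE and total epidermis and in 12 of 13 in aged epidermis (11 in both pairs), with none past the test. The assembly factors had medians of -0.08 in IFE, -0.07 in total epidermis and -0.15 in aged epidermis. Of them, Cox17, a copper chaperone for complex IV, rose past the threshold in IFE (2.16 ± 0.31, adjusted p = 0.037, 2 of 2 pairs).

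**Figure D5:**
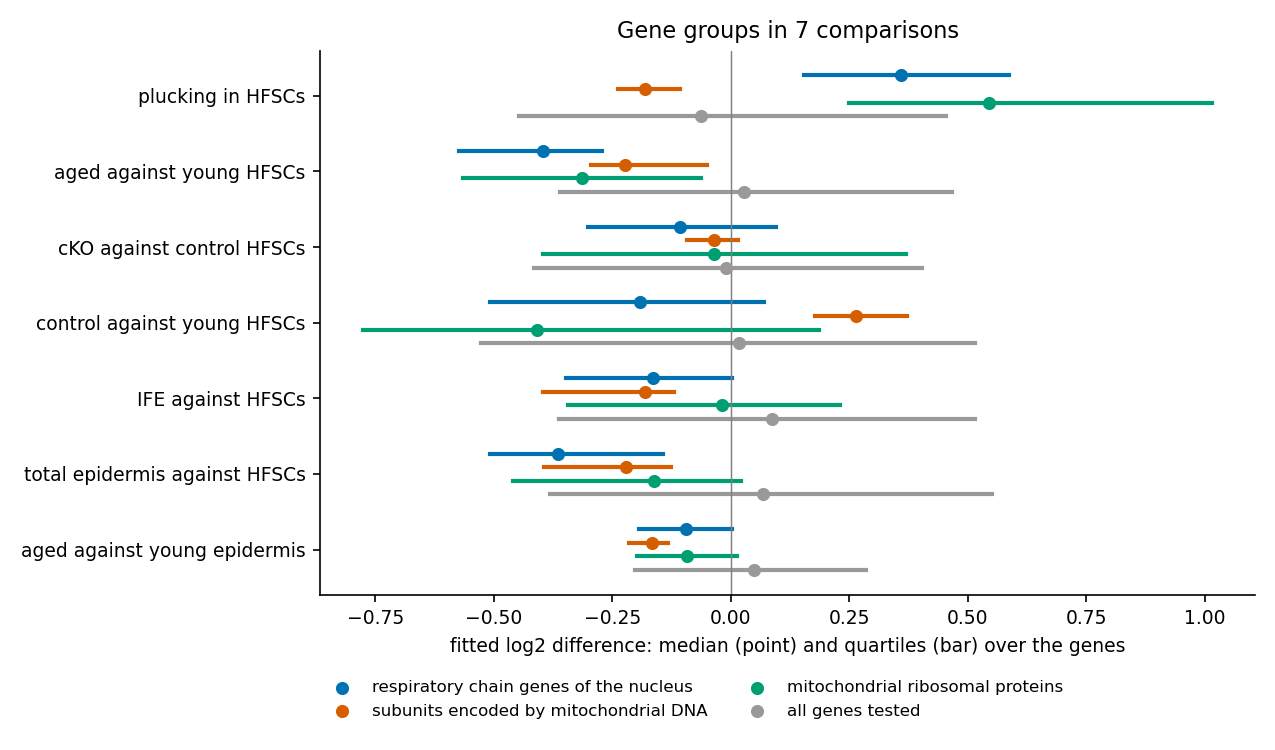
Median (point) and quartiles (bar) of the fitted log2 difference (x axis) in 7 comparisons (y axis), for the 82 nuclear members, 13 mitochondrially encoded subunits, 77 mitochondrial ribosomal proteins and all genes tested. The members lie at 0.36 for plucking and at -0.40 for aged against young HFSCs, with all genes at -0.06 and 0.03.

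Where a gene had more than 1 probe above background on all arrays, which held for 26 members, the other probes served as a check. The probes had 1 sign in 23 of 26 genes for plucking, 23 for aged against young HFSCs, 22 for cKO against control, 19 for control against young, 17 for IFE, 18 for total epidermis and 20 for aged against young epidermis. Atp5g1 was among the exceptions in all comparisons except that of aged with young epidermis.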

How the data were processed

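Each of 12 groups held 1 array. The spot intensities deposited by the authors are linear processed signals of Agilent Feature Extraction, background-subtracted per the file headers; mean spot and local background intensities, also deposited, served a single alternative. Per the file headers, that software also set the flags of a spot (well above background, outlier, saturated). Their deposited table of values, made by the authors, holds log2 values of 55821 probes. How the authors made it is not given in the sources used here, and its scale, centring and direction were inferred: with each probe's median over the arrays taken off, the levels used here matched its columns at r of at least 0.99988. Medians of its columns, unplucked then plucked, were 0.02 and -0.15 in young, -0.01 and 0.02 in aged, -0.02 and -0.2 in control and 0.17 and -0.16 in cKO HFSCs. Young and aged IFE had 0.08 and -0.01, and total epidermis -0.02 and 0.13.

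Here, 59305 spots per array without controls gave 55681 probes; 129 to 269 outlier spots an array were dropped, and no spot was saturated. Levels were log2 intensity minus the array's 75th percentile, read per gene name from the probe with the highest mean. Of 34650 gene names, 11265 had more than 1 probe. Genes with a signal well above background in 2 or more arrays of a fit were tested with limma 3.58.1 (lmFit, eBayes; R 4.3.3, data.table, version 1.17.8), Benjamini-Hochberg adjusted over all genes, at an adjusted p under 0.05. Fits were additive: mouse type and plucking over 8 HFSC arrays (3 residual degrees of freedom), population and age over 6 unplucked arrays (2) and over 4 epidermal arrays (1), and an interaction of plucking with aged or cKO mice (2). SE are limma's moderated ones. Single pairs of arrays have no test; a gene counts there as 2-fold apart with the brighter array above background. The number of arrays limits the precision. The code was tested on simulated data.

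Members and gene lists were chosen with earlier results of these data known. The text names members that pass, the 4 largest in each direction with 1 sign in every pair (fewer where fewer had it), and isoform sets; Ndufa10 and Myh1 were named after their values were seen. RefSeq gave a symbol for 82 of 85 members. Longer forms of the NRF1 and YY1 motifs were searched first, and the 7-letter forms were chosen after their matches had been seen. Summed marker levels are linear, in units of the 75th percentile. Alternatives were background modelling (normexp, offset 50) with quantile scaling, quantile or median scaling, the mean of all probes, the authors' table, no filter, a filter on every array, leaving out pairs, and within-slide values. Figures used matplotlib 3.10.9 and pandas 2.3.3 in Python 3.11.15.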

Additional observations from a re-analysis of the deposited data

Results flagged for a closer look

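Several group medians had opposite signs in matched pairs of arrays; each is the median over genes of 1 array minus 1, and none of the differences was tested. For plucking, complex I stood at -0.0186 in young and 0.56 in control mice, and complex III at -0.0093 in young and 0.46 in cKO mice. For aged against young cells, all members stood at -0.59 in unplucked HFSCs and 0.0354 in total epidermis, complex III at -0.51 and 0.0751, complex IV at -0.48 and 0.0749, and complex V at -0.63 and 0.0865. For cKO against control, complex V stood at -0.10 in plucked and 0.006 in unplucked HFSCs.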

How the results depend on the processing

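The medians over all members in the fits and the named genes kept their sign under every alternative but leaving out a pair, where 3 medians turned: control against young from -0.1916 to 0.0368 (range with either pair alone -0.3619 to 0.0368), IFE from -0.1635 to 0.0707 (-0.3529 to 0.0707) and aged against young epidermis from -0.0955 to 0.0354 (-0.2126 to 0.0354). Medians of single complexes near 0 turned under other alternatives too, as with complex IV in IFE (0.0066 with no filter). The number of members past the threshold, 0 in all 8 comparisons, became 1 for plucking (Cox6b2) with normexp and quantile scaling and with the filter on every array. It became 2 for IFE (Ndufa4l2 and Sdhb) with normexp and quantile scaling, and 1 (Ndufa4l2) with the mean of all probes and with the filter on every array. For total epidermis it became 1 (Sdhb) with normexp and quantile scaling and 2 (Ndufa11 and Sdhb) with the filter on every array. The differences of these genes themselves were the same with the filter on every array. That of Ndufa4l2, read by 1 probe, was also the same with the mean of all probes. The cause was not tested, beyond fewer genes entering the filtered fits. The median of cKO against control, -0.11, became -0.24 with median scaling, which moved the median of all genes to -0.14, -0.05 with quantile scaling and -0.0524 with normexp and quantile scaling, and was -0.2032 and -0.0729 in the single pairs. Genes of the array past the threshold for plucking numbered 127, against 1123 with normexp, 691 with the filter on every array, 281 with the mean of all probes, 22 with no filter and 0 without any 1 of the 4 pairs or within a slide. For IFE there were 1137 against 605 with no filter, and for total epidermis 938 against 1418 with normexp and 326 with no filter. Median scaling moved the median of all genes to -0.22 (aged), 0.21 (control), -0.12 (total epidermis) and 0.23 (interaction). That of control against young, -0.19, became -0.0028 with median scaling, and that of the interaction, 0.14, became 0.0242 with quantile scaling, 0.015 with normexp and 0.331 with median scaling. No paired analysis was possible because groups of 1 array share fewer than 2 replicate numbers; the fits match arrays by mouse type, age or population in their place.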

Other observations

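Genes around the respiratory chain that belong to no complex gave the following values. After plucking, Ucp2, an uncoupling protein family member of the inner membrane, rose past the threshold (2.85 ± 0.32, 7.19-fold, adjusted p = 0.0489, limma, 4 of 4 pairs), while the 10 antioxidant and uncoupling genes had a median of 0.59 with 6 higher and 4 lower. No gene of the array passed when any 1 of the 4 pairs was left out. The 17 regulators of mitochondrial biogenesis had a median of 0.32 (12 higher); Tfam, which packages and transcribes mitochondrial DNA, was higher in 4 of 4 pairs (1.09 ± 0.25, adjusted p = 0.134). The 22 genes of the citrate cycle and pyruvate entry had a median of 0.31 (14 higher), with none past the test. The 14 hypoxia targets had a median of 0.19 (9 higher, 5 lower), with Vegfa at 2.21 ± 0.42 and Ndrg1 at -3.40 ± 0.59 (adjusted p = 0.0978 and 0.0851).

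In IFE, Pdk2, a kinase that restrains pyruvate dehydrogenase, fell past the threshold (-3.92 ± 0.29, adjusted p = 0.0114), and so it did in total epidermis (-2.93 ± 0.29, adjusted p = 0.024). Txnrd2, the mitochondrial thioredoxin reductase, fell in IFE (-3.08 ± 0.50, adjusted p = 0.0464). The 13 hypoxia targets had medians of 0.57 in IFE (11 higher) and 0.67 in total epidermis (9 higher) with none past the test; Ndufa4l2 is itself known as a target of hypoxia signalling. In cKO against control HFSCs, Ppargc1a, a coactivator of mitochondrial genes, was higher in both pairs by 3.53 ± 1.06 and did not pass (adjusted p = 0.716); against young HFSCs the control stood at -2.98 ± 1.06 (adjusted p = 0.569).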
